A study of Mus musculus with 12 samples.

Results

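The genes studied here were the 9 members of the Jun, Fos and Batf families (Jun, Junb, Jund, Fos, Fosb, Fosl1, Fosl2, Batf and Batf3), out of 21755 protein-coding genes in the GENCODE vM21 annotation of GRCm38. They were chosen by name, and every cJun and H3K4me3 peak within 50 kb of their gene bodies was taken: 12 of 4960 cJun peaks and 50 of 19372 H3K4me3 peaks in DMSO, and 7 of 1632 and 49 of 19032 in JNKi. The peaks came from CUT&RUN, in which an antibody tethers a nuclease to its target in permeabilized cells so that the DNA around the target is released and sequenced. The cells were Min6, a mouse insulinoma line labelled as beta cells from the pancreas, exposed for 48 hours either to 20 µM SP600125, which blocks the kinases that phosphorylate cJun (JNKi), or to its solvent DMSO. Each treatment was profiled with antibodies to cJun, to H3K4me3 and to no mouse target (IgG), with 2 biological replicates in each of the 6 groups, 12 samples in all. The H3K4me3 lists covered a start site of 10 of 11 beta cell marker genes in both treatments, all but Ins1, and of 1 of 12 markers of other pancreatic cells, which was Gcg, the glucagon gene.

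AP-1 is a family of transcription factors that bind DNA as dimers held together by a leucine zipper. Jun proteins pair with each other or with Fos proteins, whereas Fos proteins need a Jun partner, and Batf and Batf3 are short members that pair with Jun proteins and lack the activation domain of Fos. The dimers recognize the heptamer TGACTCA or its reverse complement TGAGTCA, and with some partners the octamer TGACGTCA (the cAMP response element). JNK phosphorylates the activation domain of cJun, and the Jun promoter is a classical target of cJun itself through variant sites. H3K4me3, trimethylation of histone H3 at lysine 4, marks the starts of genes that are active or ready to be transcribed.

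The following sequences are the AP-1 and AP-1-like letters inside the cJun peaks, or just beside them (by 54 bp at Vasp and 13 bp at Jund) near the members, with a pair of summits that lack them, with the matching letters in capitals and each read 5′ to 3′ along the strand of the member. They were read from RefSeq's GRCm38 promoter table (Jun promoter) or from the GRCm38 genome (all others).
Jun promoter, the 250 bases before the RefSeq start, with TTACCTCA and then TGACATCA (chr4:95052223-95052472, GRCm38, minus strand): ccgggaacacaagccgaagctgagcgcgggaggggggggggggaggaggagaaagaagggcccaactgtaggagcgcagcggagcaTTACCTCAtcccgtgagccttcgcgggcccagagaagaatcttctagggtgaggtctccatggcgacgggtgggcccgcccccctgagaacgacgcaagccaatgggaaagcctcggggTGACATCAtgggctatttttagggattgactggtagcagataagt
Jun, 100 bases on each side of the DMSO summit upstream of the start, with none of the letters searched (chr4:95052513-95052713, GRCm38, minus strand): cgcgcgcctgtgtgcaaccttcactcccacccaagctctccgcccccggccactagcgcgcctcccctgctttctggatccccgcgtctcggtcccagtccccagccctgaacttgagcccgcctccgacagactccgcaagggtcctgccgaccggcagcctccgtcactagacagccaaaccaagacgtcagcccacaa
Jun, downstream intergenic peak in DMSO (chr4:95023927-95023956, GRCm38, minus strand): aataagtcacttTGAGTCActttcagctga
Fosl2, just inside the first exon, below the DMSO summit (chr5:32135843-32135872, GRCm38, plus strand): tgccattgtagTGACTCAtctcgggcagag
Fosb neighbourhood, inside the DMSO peak in the Vasp intron (chr7:19269045-19269074, GRCm38, minus strand): agtacgatgtggTGACTCAtgcctctaagg
Fosb neighbourhood, beside the DMSO peak at the Vasp promoter (chr7:19272318-19272347, GRCm38, minus strand): acccggccgcggTGAGTCAgcggcccgccg
Fosb neighbourhood, peak near Ercc1 in JNKi (chr7:19342151-19342180, GRCm38, minus strand): gccgcccggggcTGACTCAcccggcccgga
Jund, cAMP response element beside the JNKi peak (chr8:70698725-70698754, GRCm38, plus strand): cccacccccaTGACGTCAacccacaatgca
Jund, summit of the JNKi peak, with none of the letters searched (chr8:70698626-70698655, GRCm38, plus strand): ggaagagaaagggaggagaggcaagaaaca

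Each peak list paired the replicates of 1 group by irreproducible discovery rate (IDR), the estimated chance that a peak does not hold between replicates, so a peak is listed only if both replicates gave it. A peak carries a −log10 p-value from each replicate, called first and second here in file order because the columns carry no replicate number. The merged peak takes the lower of those values, and its percentile is its place by that value within its own list, where 100 is the highest. There was 1 list per antibody and treatment and it held only what both replicates gave, so the presence of a peak has no error between replicates. The −log10 p and width of a listed peak have 2 replicate values per treatment, which are given side by side. They were not tested between treatments: an exact two-sided permutation test of 2 values against 2 cannot go below p = 0.333. The lists give no read counts, so the depth behind each peak is unknown. A missing peak says only that it was not in that list. The JNKi cJun list held fewer peaks than the DMSO list, so counts are set beside the share of all genes or peaks of the same list. Start sites are those of the GENCODE annotation, and distances run along the strand of the member. 

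cJun peaks lay within 50 kb of 6 of the 9 members in DMSO (Jun, Jund, Fosb, Fosl1, Fosl2 and Batf), against 28.4% of all protein-coding genes. In JNKi they lay near 4 (Jun, Jund, Fosb and Fosl2), against 12.2%. The exact binomial 95% intervals of the members' shares, which cover counting error only, were 29.9% to 92.5% in DMSO and 13.7% to 78.8% in JNKi. Genes with H3K4me3 over a start had cJun peaks more often in general: 38.4% of them in DMSO, where 5 of 8 such members did, and 16.6% in JNKi, where 4 of 8 did. The intervals over those members, 24.5% to 91.5% and 15.7% to 84.3%, both hold the share of all such genes. Junb, Fos and Batf3 had 0 cJun peaks in either list. When the DMSO list was shortened to its 1632 highest peaks, the length of the JNKi list, 3 members kept a peak in DMSO (Jun, Fosb and Fosl2), each with 1, against 12.8% of all genes. Within 10 kb, cJun peaks lay near 2 of 9 members in DMSO, against 15.2% of all genes, and near 3 of 9 in JNKi, against 6.05%. The member counts of the treatments thus changed order with the window and the list length, and the full lists differ in length.

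Within 3 kb of their own start, a distance chosen after the values were seen, Jun and Fosl2 had a cJun peak in DMSO, 2 of 9 members against 7.90% of all genes. In JNKi, Jun, Fosl2 and Jund did, 3 of 9 against 2.91%. The peaks counted for Fosb, Fosl1 and Batf all lay nearer to a start site of another gene. So did the DMSO peaks counted for Jund, nearest to starts of Lsm4 and Pde4c. By IDR of at most 0.05, 1 of 12 member peaks passed in DMSO (8.97% of the list) and 2 of 7 in JNKi (15.6%): the upstream Jun peak in each treatment and the Jund peak in JNKi. The other member peaks had an IDR between 0.0583 and 0.729, above that limit, as did most peaks of either list.

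**Figure D1:**
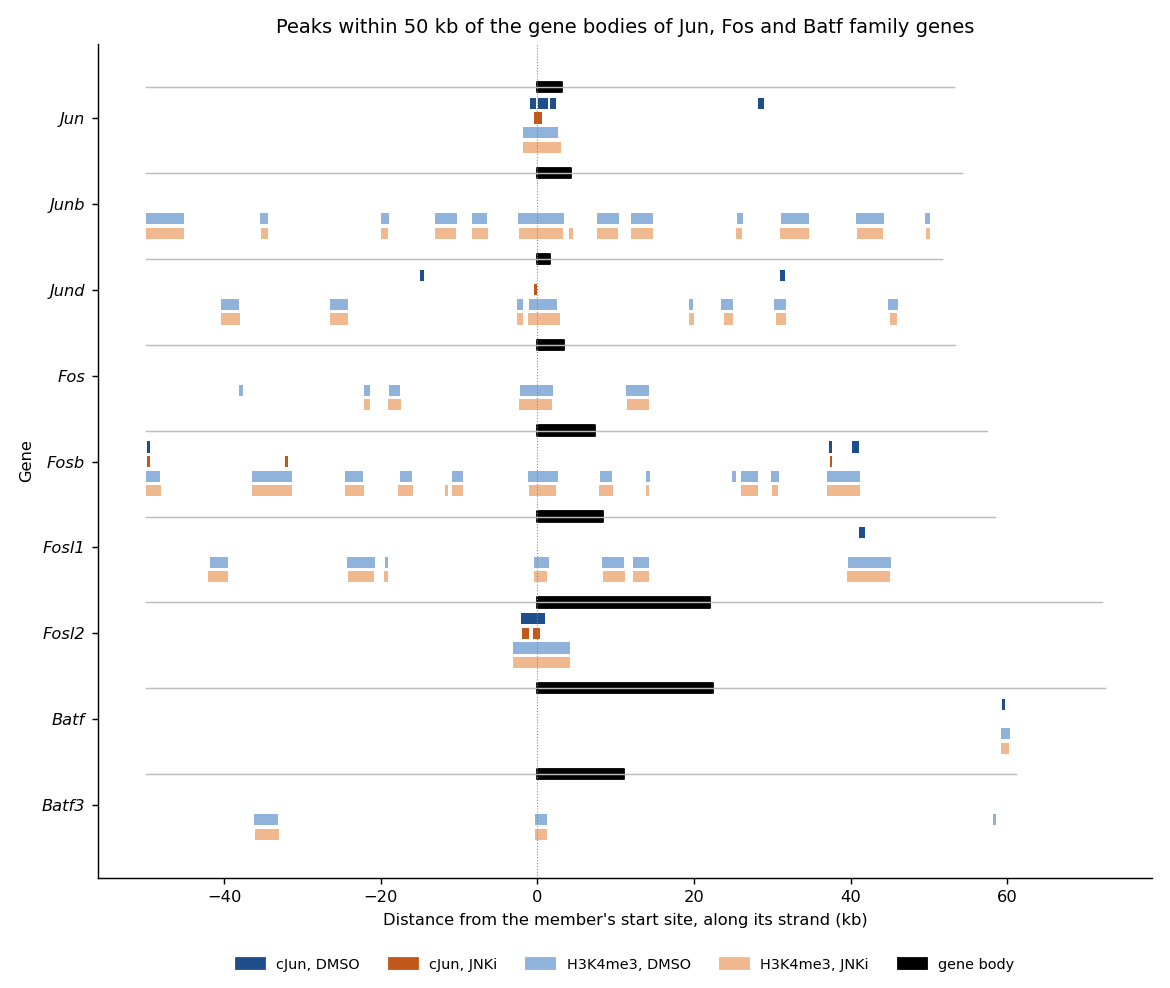
Peaks of the 4 lists around the 9 genes, 1 row per gene, by distance in kb from the start site along the strand of the gene; dark bars are cJun peaks, pale bars H3K4me3 peaks, blue DMSO and orange JNKi, black the gene body and the grey line the window searched. Jun and Fosl2 carry cJun in both treatments at the start, Jund in JNKi, and Junb, Fos and Batf3 carry none.

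Jun (ENSMUSG00000052684.4, minus strand, chr4:95049034-95052222) encodes cJun itself, and in DMSO it held more cJun peaks than any other member. It had 4, a number reached by 1.81% of all genes (a limit chosen after the values were seen) and by 1 of the 9 members. The peak upstream of the start, chr4:95052456-95053187, was 732 bp wide and had a −log10 p of 15.1 and 12. It ranked 469 of 4960 (percentile 90.5), its IDR was 0.0492, and its summit lay 391 bp before the start. The summits of the 2 replicates lay 8 bp apart there, so this was the most closely placed of the DMSO peaks at Jun.

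The next DMSO peak, chr4:95050825-95052203, lay just inside the transcript and ran over the 5′ part of Jun, a gene without introns. Its −log10 p was 5.85 in the first replicate and 14.5 in the second, its percentile 48.6, its IDR 0.519, and the replicate summits lay 913 bp apart. The peak further into the transcript, chr4:95049893-95050620, had 9.24 and 4.76 (percentile 28.4, IDR 0.504). Both lay under the H3K4me3 peak over the start, and in each the replicates differed more than in the upstream peak. The last, chr4:95023321-95024009, was intergenic, 28503 bp past the start, with 8.85 and 5.37 (percentile 39.4, IDR 0.472). It was not over H3K4me3 and held the site TGAGTCA printed above, 222 bp from its summit.

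In JNKi, Jun had 1 cJun peak, chr4:95051616-95052703, 1088 bp wide, with a −log10 p of 11.7 and 12.7. It ranked 203 of 1632 (percentile 87.6) with an IDR of 0.0410. Its summit, 404 bp before the start, was 13 bp from the upstream DMSO summit. The JNKi peak overlapped that DMSO peak by 248 bp and the one just inside the transcript by 588 bp, bridging the gap between them. The summit position upstream of Jun was therefore listed under both treatments, while the 2 other DMSO peaks had no JNKi counterpart. In base pairs covered, cJun peaks took up 3528 bp around Jun in DMSO and 1088 bp in JNKi. The whole JNKi list was also shorter, with 1632 peaks of median width 601 bp against 4960 of 643 bp in DMSO. Whether coverage at Jun fell by more than in the list at large was not tested.

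The AP-1-like letters of the Jun promoter did not lie under the summits. TGACATCA lay 42 bp and TTACCTCA 161 bp before the start. Both were inside the JNKi peak but in the gap between the DMSO peaks, 57 and 70 bp from the nearer one. Of 27025 RefSeq promoters, each 250 bases before to 50 after a start and searched on both strands, 3.76% held TGACATCA and 0.851% held TTACCTCA. Jun was the only one of the 8 members in that table to hold either.

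**Figure D2:**
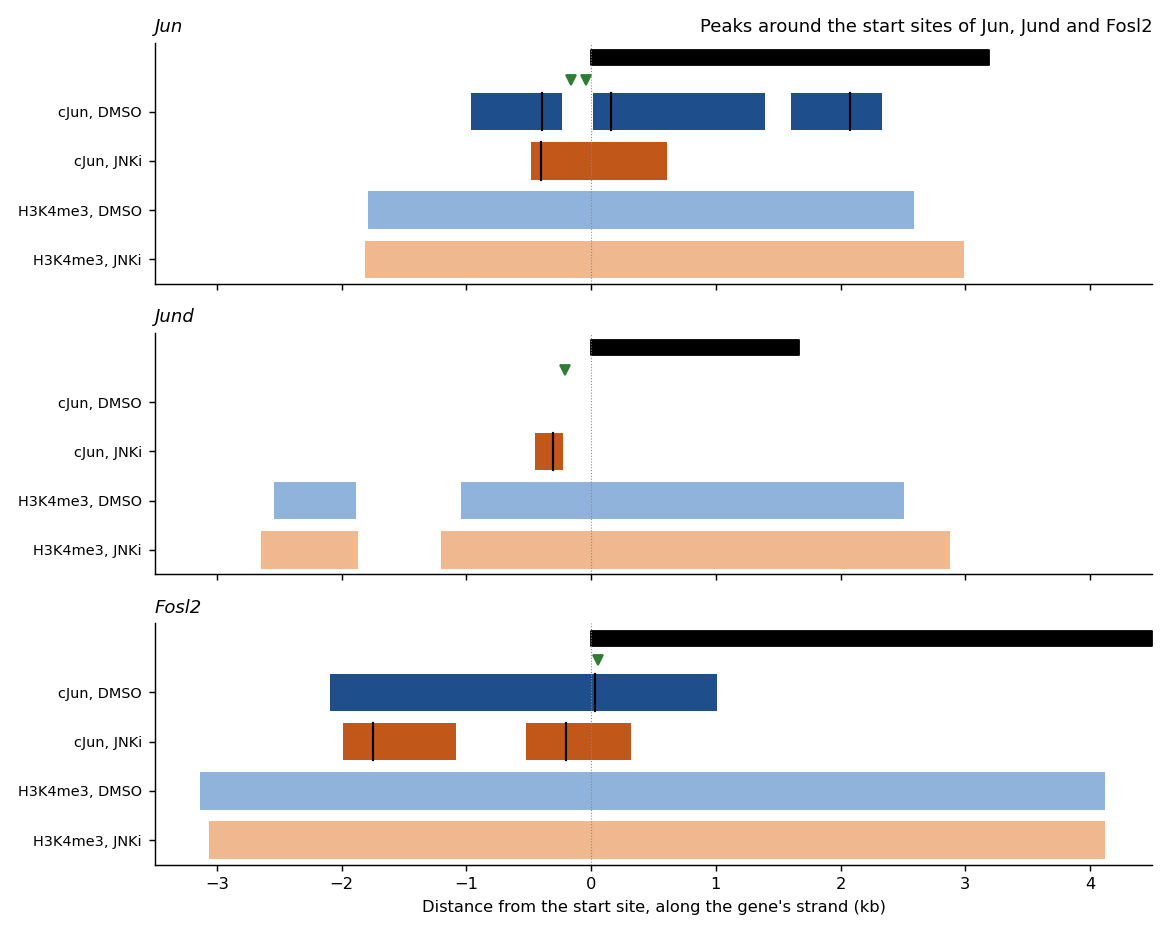
Peaks around the starts of Jun, Jund and Fosl2 by distance in kb from the start along the gene's strand; bars are peaks of the 4 lists, black ticks cJun summits, the black bar the gene body (cut at the panel edge for Fosl2), and green triangles AP-1 or AP-1-like letters within 1 kb of the start. The Jun summits at 391 bp (DMSO) and 404 bp (JNKi) upstream coincide, the Jund peak stands in JNKi alone, and the DMSO peak at Fosl2 spans both JNKi peaks.

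Jund (ENSMUSG00000071076.6, plus strand, chr8:70698949-70700616) encodes JunD, the Jun protein that most resting cells express steadily. Its JNKi peak, chr8:70698503-70698722, was the highest cJun peak near any member: −log10 p 29.1 and 26.6, rank 27 of 1632 (percentile 98.4), IDR 9.31e-04. The replicates placed their summits 31 bp apart, and the merged summit lay 309 bp before the annotated start. At 220 bp it was also among the narrowest calls, as 2.70% of JNKi and 2.28% of DMSO cJun peaks were no wider. No DMSO cJun peak overlapped it. The RefSeq transcript of Jund starts further upstream, so the peak falls in its 5′ UTR and outside the GENCODE gene body. The octamer TGACGTCA lay 13 bp past the edge of the peak, 210 bp before the start. That octamer occurred within 1 kb of the start of 4.05% of all genes.

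The DMSO list had a pair of other peaks around Jund, neither at its promoter. One at chr8:70683938-70684459, 14490 bp upstream of the gene body and not over H3K4me3, had 5.77 and 5.21 (percentile 37.1). Its summit was nearest to a start of Lsm4, 10796 bp away. The other, chr8:70729875-70730507 in an intron of Pde4c, a phosphodiesterase gene, had 6.87 and 3.5 (percentile 6.95). Both had an IDR of 0.729, the highest value among the member peaks.

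Junb (ENSMUSG00000052837.6, minus strand, chr8:84974484-84978718), an immediate early gene of the same family, had no cJun peak within reach. The nearest lay 141957 bp away in DMSO, in Gadd45gip1, and 140798 bp away in JNKi, in Zfp791. TTACCTCA lay 680 bp before its start, and within 1 kb of the start of 5.94% of all genes. The 3 Jun genes thus stood differently in the lists. Jun had a promoter peak in both, Jund in the JNKi list only, and Junb had no cJun peak in its window in either. Signal below the calling threshold was not measured.

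Fosl2 (ENSMUSG00000029135.10, plus strand, chr5:32135801-32157842) encodes Fra-2, a Fos protein without the strong activation domain of c-Fos. Its DMSO peak, chr5:32133705-32136807, ran over the start for 3103 bp, a width at percentile 99.8 of its list. It had a −log10 p of 16.4 and 11.2 (rank 569, percentile 88.5, IDR 0.0583). The replicate summits lay 1976 bp apart within it, so the place of the merged summit, 35 bp inside the gene, is uncertain. TGACTCA lay 56 bp inside the gene, 21 bp from that summit, but 24.3% of all genes held that heptamer within 1 kb of the start, as did Fosl2 and Fosl1 among the 9 members. The peak was 1 of 2 DMSO member peaks with an AP-1 heptamer within 100 bp of the summit.

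In JNKi the same stretch held a pair of narrower peaks, each wholly inside the DMSO peak. The upstream one, chr5:32133809-32134715, had 8.05 and 7.81 (percentile 68.0, IDR 0.230) with a summit 1748 bp before the start. The one over the start, chr5:32135281-32136123, had 6.28 and 4.69 (percentile 26.5, IDR 0.672). It still contained TGACTCA, now 259 bp from its summit. Together they covered 1750 bp. Fosl2 and Jun were the members with a cJun peak across the start in JNKi, and Fosl2 the only one in DMSO.

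Fosb (ENSMUSG00000003545.3, minus strand, chr7:19302696-19310051) encodes FosB, an inducible Fos protein. All of its peaks were at other genes. In DMSO, chr7:19268954-19269860 in an intron of Vasp, an actin regulator, had 9.96 and 5.49 (percentile 41.4), and it held TGACTCA 683 bp from its summit. Beside Vasp, with a summit 598 bp from its start, chr7:19272389-19272852 had 4.46 and 14.3 (percentile 23.7). Near the start of Cd3eap, chr7:19359508-19359942 had 9.74 and 11.5 (percentile 83.6, IDR 0.159), but at 49457 bp from Fosb it was only just within the window.

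In JNKi the Vasp peak, chr7:19272390-19272748, had 4.71 and 8.52 (percentile 26.7) and the Cd3eap peak, chr7:19359515-19359899, had 3.63 and 5.41 (percentile 7.32). The Cd3eap peak had a lower −log10 p in both JNKi columns than in either DMSO column. The depth behind those values is unknown, and the percentiles belong to lists of different length. A change in binding there was not tested. The remaining JNKi peak, chr7:19341854-19342230, 2815 bp from a start of the DNA repair gene Ercc1, had 9.10 and 4.80 (percentile 28.1) and no DMSO counterpart. It held TGACTCA 202 bp from its summit. The heptamer at Vasp lay 83 bp from the DMSO summit but 54 bp outside the called peak.

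Fosl1 (ENSMUSG00000024912.6, plus strand, chr19:5447547-5455946), which encodes Fra-1, had 1 DMSO peak, chr19:5488555-5489429, 563 bp from the start of Mus81, with 5.77 and 11.4 (percentile 46.9, IDR 0.498). Batf (ENSMUSG00000034266.6, plus strand, chr12:85686669-85709087) had 1 DMSO peak, chr12:85745948-85746291, 441 bp from the start of Flvcr2, with 11.5 and 3.96 (percentile 14.8, IDR 0.539). In both the replicates stood far apart, and neither peak was in the JNKi list, where the nearest cJun peak lay 361367 bp from Fosl1 and 1091750 bp from Batf. Fosl1 held TGAGTCA 353 bp inside its start and Batf TGACGTCA 657 bp before its start, each away from any cJun peak. In DMSO, 3 of 12 member peaks held a heptamer anywhere (32.6% of the list) and 2 of 12 within 100 bp of the summit (10%). In JNKi these counts were 2 of 7 (35.0%) and 0 of 7 (12.1%), so neither count stood clear of its list.

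Fos (ENSMUSG00000021250.13, plus strand, chr12:85473890-85477273), the founding immediate early gene of the family, had its nearest cJun peak 134262 bp away in DMSO, 123 bp from the start of Nek9. In JNKi the nearest lay 1279388 bp away. Batf3 (ENSMUSG00000026630.9, plus strand, chr1:191097847-191108945) had its nearest peak 74057 bp away in DMSO and 74090 bp away in JNKi. Both of those were in Atf3, a stress-induced bZIP gene, 283 and 279 bp from its start.

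The replicates of the DMSO member peaks differed more than was usual in that list. The median ratio of the higher to the lower −log10 p was 1.88 over the 12 DMSO member peaks and 1.42 over the list, and the median distance between replicate summits was 203 bp against 63 bp. In JNKi the ratios were 1.34 over the 7 member peaks and 1.42 over the list, and the distances 66 bp and 57 bp. The median percentile of the merged member peaks was 40.4 in DMSO, from 6.95 to 90.5, and 28.1 in JNKi, from 7.32 to 98.4. That rank uses the lower replicate: ranked by 1 column alone, the DMSO median was 61.2 (first) or 53.5 (second), and the JNKi median 54.8 or 50.1.

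Set side by side, the 19 peaks formed 13 sites, of which 7 held DMSO peaks alone, 2 held JNKi peaks alone (Jund promoter and Ercc1) and 4 held both (Jun, Fosl2, Vasp and Cd3eap). Of the 12 DMSO peaks, 5 were overlapped by a JNKi peak, against 23.6% of the DMSO list, and of the 7 JNKi peaks 5 were overlapped by a DMSO peak, against 72.0%. With at least 50% reciprocal overlap, 2 of the DMSO peaks were shared, those at Vasp and Cd3eap. H3K4me3 of the same treatment overlapped 10 of the 12 DMSO peaks (53.4% of the list) and 7 of the 7 JNKi peaks (55.5%). The exceptions were the distal DMSO peaks of Jun and Jund. With 12 and 7 peaks, of which several lie at 1 gene, these shares are counts of sites and not of independent events.

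H3K4me3 covered a start of 8 of the 9 members in DMSO (57.3% of all genes) and of the same number in JNKi (56.9%), the exception in each being Batf. The only H3K4me3 peak within reach of Batf, in each treatment, was at Flvcr2. So 3 members with H3K4me3 at the start, Junb, Fos and Batf3, had no cJun peak, and Batf had a cJun peak in its window but no H3K4me3 at its start.

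The widths of these domains ordered the members alike in both lists except for Fosb and Jund. Fosl2 had the widest, 7254 bp in DMSO and 7182 bp in JNKi, at width percentile 99.4 of each list. Junb followed with 5796 and 5735 bp, then Jun with 4382 and 4802 bp. Fos, with 4211 and 4201 bp, came next. Fosb had 3735 and 3520 bp and Jund 3549 and 4078 bp, and these 2 exchanged places between the lists. Fosl1, with 1890 and 1706 bp, and Batf3, with 1634 and 1528 bp, had the narrowest.

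No member's domain was over 25% wider in JNKi (0 of 8, 2.42% of all genes with a peak in both lists) or over 20% narrower (0 of 8, 2.32%). The ratio of JNKi to DMSO width had a median of 0.990 over the 8 members, from 0.903 for Fosl1 to 1.15 for Jund, and of 1.01 over 12294 genes, with quartiles of 0.965 and 1.06. The 2 members above the upper quartile were Jun, at 1.10, and Jund, but their replicates overlapped: the Jun domain was 4382 and 4289 bp wide in the DMSO replicates and 4802 and 4171 bp in the JNKi replicates, and the Jund domain 3174 and 3549 bp against 4078 and 3448 bp. Both JNKi replicates were narrower than both DMSO replicates at 4 of 8 members, Junb, Fosb, Fosl1 and Batf3, as at 14.6% of all genes with a peak in both lists. At Fosl1 they were 1555 and 1595 bp against 1839 and 1874 bp, and at Batf3, whose ratio was 0.935, 1528 and 1332 bp against 1634 and 1602 bp. At Fosb, with a ratio of 0.942, they were 3520 and 3388 bp against 3711 and 3709 bp. Both were wider at 0 of 8 members, as at 20.7% of all genes. These comparisons of replicates were chosen after the values were seen.

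In strength, Jund moved most. Its H3K4me3 domain had a −log10 p of 246 and 70.9 in DMSO and of 307 and 301 in JNKi, which took it from percentile 45.6 to 77.0. Over the whole lists the median −log10 p was 94.0 in DMSO and 114 in JNKi, so percentiles are compared in place of p-values. Jund was the only 1 of the 8 members to rise by more than 20 percentile points, a limit chosen after the values were seen, as did 4.16% of all genes with a peak in both lists. The rise rests on the second DMSO replicate: by the first column alone the percentile was 67.1 in DMSO and 68.8 in JNKi, and by the second 43.9 and 76.3. Jun had 181 and 126 in DMSO and 263 and 207 in JNKi (percentiles 55.3 and 63.2), higher in both columns. Batf3 had 52.2 and 37.4 in DMSO and 31.1 and 28.2 in JNKi (percentiles 37.2 and 32.5). By the first column alone Batf3 moved most, from 37.7 to 26.6, and by the second from 34.8 to 31.7. The other 5 members shifted by between 5.67 points down (Fosl1) and 8.26 points up (Fosb), and the rises at Fos, Fosb and Fosl2 turned to falls by the first column. Fosb, for example, went from 75.4 to 73.1 by the first column and from 69.8 to 78.7 by the second.

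**Figure D3:**
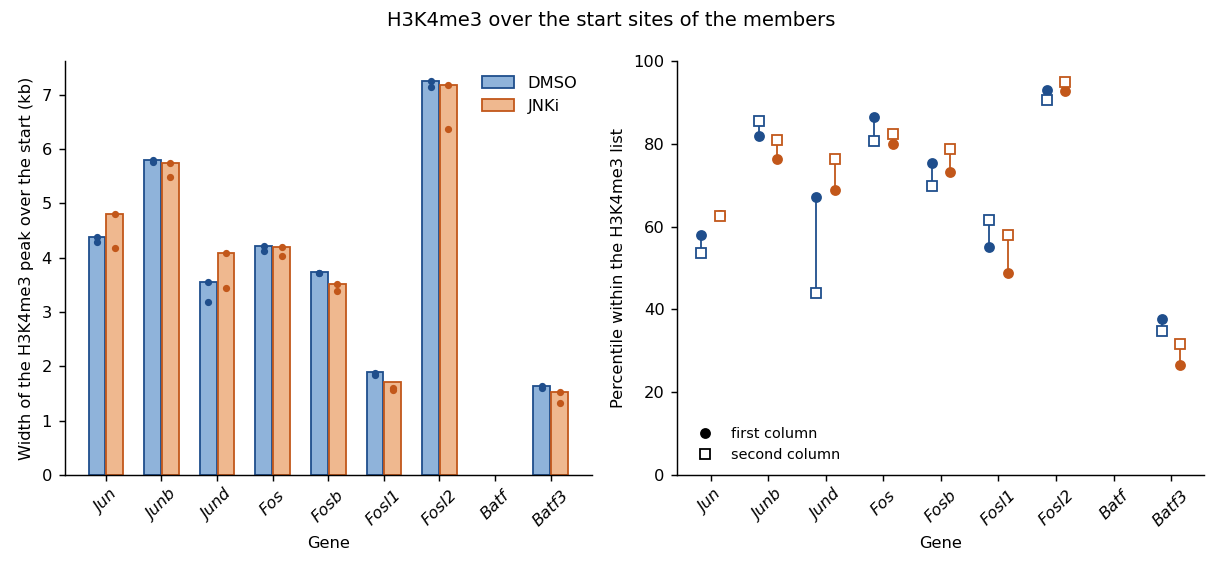
H3K4me3 peak over the start of each member; the left panel gives the width in kb of the merged peak (bars from 0) with the replicate widths as dots, the right panel the percentile of each replicate within its list (dot first column, square second), blue DMSO and orange JNKi, with no value for Batf. Widths run from 1528 bp (Batf3, JNKi) to 7254 bp (Fosl2, DMSO) and change little with treatment, and the second DMSO replicate of Jund stands apart at percentile 43.9.

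Beyond the starts, 3 of the 50 DMSO peaks of H3K4me3 in the windows had no counterpart in JNKi, near the 6.60% of the list, and 2 of the 49 JNKi peaks had none in DMSO (5.70%). All 5 ranked low in their lists. In DMSO alone these were near Fos (percentile 4.42), near Fosb in Rtn2 (18) and near Batf3 (24.7). In JNKi alone they were upstream of Fosb (4.96) and at the 3′ end of Junb (1.67).

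Among genes that work with the members, cJun peaks within 50 kb were found for 5 of 12 AP-1 partners and bZIP relatives in DMSO, against the 28.4% of all genes, and for 2 in JNKi (Atf3 and Maff), against 12.2%. Of 14 JNK pathway genes 8 had one in DMSO and 2 in JNKi (Map3k5 and Spag9, a kinase and a scaffold), and of 6 genes of AP-1 turnover and regulation 3 and 2. All 14 and all 6 had H3K4me3 over a start in both treatments. Of all genes with that mark, 38.4% in DMSO and 16.6% in JNKi had a cJun peak within 50 kb. Maff, Map3k5 and Spag9 were named after their values were seen. Of the 11 beta cell markers 9 had such a peak in DMSO and 8 in JNKi, and of the 12 markers of other pancreatic cells 2 in each. The shares of all genes were the same 28.4% and 12.2%. The 2 turnover genes with a peak in both lists were Dusp1 and Dusp16, phosphatases that switch off MAP kinases, with lowest IDR of 0.00765 and 6.15e-04 in DMSO and 0.00386 and 1.03e-04 in JNKi. Those IDR values lie well under that of any member peak but the one at Jund in JNKi. Jdp2, a Jun partner 46791 bp from Batf, had 0 cJun peaks in either list.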

How the data were processed

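Peak lists from CUT&RUN in 12 samples (6 groups of 2 biological replicates, grouped by their labels) were read as deposited. Per the labels and the methods, the authors aligned reads to GRCm38 with Bowtie2 2.4.2, filtered them with SAMtools 1.16, called peaks against IgG with MACS2 2.2.7.1 and paired replicates by IDR. IgG libraries and read totals were not analysed here. Each of the 4 deposited lists has 20 columns, with a −log10 p-value per replicate and merged, of which the authors' merged value was the lower in 100% of peaks. The deposited score is a scaled IDR, and IDR itself was taken from its −log10 column. The signal column, planned for ranking, held a placeholder in 100% of peaks, so peaks were ranked by merged −log10 p. The lowest value was 3.01 in each list, a p of 0.001, whereas the methods state default MACS2 settings, which cut by q-value; the setting used is unknown. In the H3K4me3 lists IDR did not follow strength: of the 100 highest peaks, 86 in DMSO and 95 in JNKi had an IDR over 0.05, so an IDR limit there removes the strongest peaks.

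Peaks overlapping a gene body extended by 50 kb on each side were assigned to a member, and an overlap needed 1 bp. Motifs were searched on both strands of GRCm38 with Python 3.11.15 and pysam 0.24.0. The motif and overlap steps were checked on simulated data (400 of 400 planted overlaps and 200 of 200 planted motifs found). Promoter sequences came from RefSeq and matched 8 of the 9 members by symbol. All 9 members and every peak in their windows were named by rule, with the gene each cJun peak lies in or nearest to, together with the cell type markers, and other genes only within 200 kb of a member or with an IDR of at most 0.05 in both cJun lists, apart from 3 named after their values were seen. Members, gene lists and limits were chosen with earlier results of these data known. Treatments were compared as lists, without a test. Alternatives varied the IDR limit, the window, the overlap rule, the motif window and the list length.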

Additional observations from a re-analysis of the deposited data

How the results depend on the processing

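Of 90 alternative values for 17 results, 33 stayed within 1.5 times the reported count or within the spread between replicate columns, and 57 did not; 1 planned value could not be given, the median percentile in DMSO at an IDR of at most 0.01, where no peak is left. H3K4me3 over a start stayed at 8 members in both treatments under each alternative tried, and the median width ratio lay between 0.990 and 0.994.

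At an IDR of at most 0.05, 1 member (Jun) had 1 cJun peak in DMSO, with a percentile of 90.5, over H3K4me3, overlapped in JNKi, and with 0 AP-1 heptamers; in JNKi, 2 members (Jun and Jund) had 2 peaks, median percentile 93.0, 2 over H3K4me3 and 1 overlapped in DMSO. At 0.01 the counts in DMSO were 0, also for overlap, H3K4me3 and heptamers, and in JNKi 1 member (Jund) had 1 peak, percentile 98.4, over H3K4me3 and 0 overlapped.

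With a window of 10, 25 and 100 kb, cJun peaks in DMSO numbered 4, 5 and 19 at 2, 3 and 7 members, and in JNKi 4, 4 and 9 at 3, 3 and 5. Their median percentile was 68.6 at 10 kb and 48.6 at 25 kb in DMSO and 77.8 at both in JNKi, and H3K4me3 peaks numbered 18, 33 and 86 in DMSO and 19, 34 and 84 in JNKi. Where the member had to be the nearest gene, DMSO had 5 cJun peaks at 2 members (median percentile 48.6) and 16 H3K4me3 peaks, and JNKi 4 cJun peaks at 3 members (77.8) and 17 H3K4me3 peaks. So DMSO had more members with a cJun peak than JNKi in the 50 and 100 kb windows, fewer at 10 kb, at the nearest gene, at equal list length and at either IDR limit, and as many at 25 kb.

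With lists of equal length DMSO had 3 peaks at 3 members, of which 3 were overlapped in JNKi, against 4 members in JNKi. A reciprocal overlap of 50% left 2 shared peaks in each list and 0 over H3K4me3, since the H3K4me3 peaks are wider, and summits within 200 bp left 3 shared in each, and 4 (DMSO) and 0 (JNKi) with H3K4me3. Within 50 bp of the summit 1 DMSO peak had a heptamer, and over the whole peak 2 JNKi peaks did.

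No paired analysis was possible because each list merges its replicates and its columns carry no replicate number. For the same reason no replicate was left out: a listed peak needs both. Lists without read counts give no measure of depth, so a treatment-only peak and a peak just below the calling threshold cannot be told apart.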
